A study of Mus musculus with 9 samples.

Results

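The genes described here are 37 of the 20778 symbols in a bulk RNA sequencing table of mouse glioblastoma. They comprise 22 genes of glucose uptake and glycolysis, 12 other targets of the hypoxia-inducible factors (HIFs) and 3 genes of the HIF pathway itself. They were taken from the table by symbol, and all 37 were present and tested. The samples form 3 groups of 3 libraries each. The tumour group came from 7-week-old male C57BL/6 mice with an intact immune system, into whose striatum 50000 mCherry-labelled GL261 cells, a mouse glioblastoma line, were implanted; brains were resected on day 14, from 5 mice in all. Both culture groups held the same labelled line in a penta-culture with astrocytes, microglia, pericytes and endothelial cells freshly isolated from the brains of male C57BL/6 mice aged 6 to 10 weeks, with GL261 seeded at 1000000 cells per ml. One penta-culture was grown on a 2D petri dish and the other in fibrin 3D-bioink. Collagenase digestion, at 600 U per ml for 3 h, is recorded for the bioink only. The labels give neither the time in culture nor the oxygen tension, and they do not say whether the libraries of a group came from separate mice or cultures, so each p-value rests on spread that could be technical. Bioink replicate 1 stands apart at low values: 67 genes had a value of 1 there, against 367 to 580 in each of the other libraries.

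Cells sense oxygen through prolyl hydroxylases, which mark HIF alpha subunits for destruction by the VHL ubiquitin ligase while oxygen is plentiful. When oxygen falls, HIF1A and EPAS1 (HIF-2 alpha) escape this mark, pair with ARNT and bind a short core sequence, the hypoxia response element, in their target genes. Those targets include glucose transporters, most glycolytic enzymes and the lactate exporter, together with genes of pH control, mitophagy and collagen hydroxylation. In glioblastoma they are known as markers of the poorly perfused tissue around necrosis, and since HIF proteins are controlled largely by their stability, messenger RNA of the targets is read more often than that of the factors.

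The promoters of 6 members are shown because their genes followed one order in the deposited values, highest in the bioink, intermediate in tumours and lowest in 2D culture. Each is a stretch of 130 bases from RefSeq (build GRCm38.p6), read 5′ to 3′ on the gene's strand. The capitals mark the core letters of the hypoxia response element, ACGTG or GCGTG, or the same letters on the other strand, CACGT or CACGC. For Egln3 the stretch begins 250 bases before the transcription start, and for the others it ends at the base before a start (for Slc16a3, a start inside the annotated gene).
Car9 (chr4:43506896-43507025, plus strand): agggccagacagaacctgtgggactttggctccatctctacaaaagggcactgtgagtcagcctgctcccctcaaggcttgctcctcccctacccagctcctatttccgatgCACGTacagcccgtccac
Slc2a1 (chr4:119108615-119108744, plus strand): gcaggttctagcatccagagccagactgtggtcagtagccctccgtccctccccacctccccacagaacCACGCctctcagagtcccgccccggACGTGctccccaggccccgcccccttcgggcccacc
Bnip3 (chr7:138909507-138909636, minus strand): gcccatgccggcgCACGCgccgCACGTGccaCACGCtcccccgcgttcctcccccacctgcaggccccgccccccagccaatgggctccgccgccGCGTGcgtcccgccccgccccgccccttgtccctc
Pfkl (chr10:78009808-78009937, minus strand): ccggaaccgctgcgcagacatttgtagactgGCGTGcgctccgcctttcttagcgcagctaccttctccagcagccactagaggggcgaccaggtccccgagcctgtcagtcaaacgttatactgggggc
Slc16a3 (chr11:120948937-120949066, plus strand): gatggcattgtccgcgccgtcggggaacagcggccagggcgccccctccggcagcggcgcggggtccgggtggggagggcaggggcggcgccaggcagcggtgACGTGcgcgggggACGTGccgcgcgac
Egln3 (chr12:54203995-54204124, minus strand): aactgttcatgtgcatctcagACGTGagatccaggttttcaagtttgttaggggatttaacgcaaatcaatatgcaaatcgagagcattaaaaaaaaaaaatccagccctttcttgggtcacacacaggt
In Car9 the core begins 18 bases before the start. Slc2a1 carries ACGTG at 36 bases and the reverse-strand CACGC at 61 bases. Slc16a3 carries ACGTG at 14 and at 27 bases. The run of capitals in Bnip3 at 108 bases is CACGTG, the E-box, which contains the core on both strands. Over windows from 250 bases before to 50 after each start, 33 of the 37 genes had an entry in the promoter table, with 46 windows between them. The core letters were in 36 of these 46 windows (78.3%), against 14380 of 32851 windows of all genes (43.8%). ACGTG alone was in 54.3% of the members' windows against 19.6% of all, and the E-box in 10.9% against 7.15%. Of the HIF targets other than glycolytic genes, 9 of 10 windows held a core. Slc2a3, Ndrg1, Bnip3l and Epas1 had no entry. A match describes the letters in the window and does not show a bound site, and the genes were listed as HIF targets to begin with.

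Against tumours, transcripts of the HIF alpha subunits moved in opposite directions in both cultures. Hif1a, the broadly expressed alpha subunit (chromosome 12, 73901324 to 73947554), had deposited values of 1786, 1627 and 1776 in tumours, 2249, 2254 and 2351 in 2D culture, and 2715, 2667 and 2819 in the bioink. These values are normalized counts rounded to whole numbers by the authors, and they serve to compare one gene between groups, not one gene with another. No library of one group overlapped another, in the order bioink, 2D culture, tumour. On the log2(value + 1) scale Hif1a was higher by 0.66 in the bioink than in tumours (SE 0.06, limma adjusted p = 4.13e-06), by 0.40 in 2D culture than in tumours (adjusted p = 0.000159) and by 0.26 in the bioink than in 2D culture (adjusted p = 0.00259). Epas1, the alpha subunit best known from endothelium, gave 401, 429 and 413 in tumours, 157, 135 and 151 in 2D culture, and 207, 301 and 243 in the bioink. It fell in both cultures (log2 -1.48 in 2D culture and -0.74 in the bioink, adjusted p = 1.95e-05 and 0.00177), and lay higher in the bioink than in 2D culture by 0.74 (SE 0.15, adjusted p = 0.00197). Within each library the log2 ratio of Epas1 to Hif1a was -2.06 ± 0.12 in tumours, -3.95 ± 0.11 in 2D culture and -3.46 ± 0.29 in the bioink (SD, n = 3 each). Vhl, the substrate receptor of the ubiquitin ligase, ranged from 243 to 445 over the 9 libraries and passed the test in no comparison (adjusted p between 0.173 and 0.745).

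Most of the other HIF targets were higher in the bioink than in either other group. Against tumours 9 of the 12 rose and 0 fell, with a median log2 difference of 1.06; among all 13773 genes tested, 27.1% rose and 37.3% fell (64.4% passed in all), and the median was -0.11. Against 2D culture 9 of 12 rose again and 0 fell, with a median of 1.15, beside 27.0% and 32.2% of all genes (59.2% in all) and a median of -0.02. These comparisons share the bioink libraries. In 2D culture against tumours, 4 rose and 5 fell (median -0.30), where 27.3% of all genes rose and 27.0% fell (54.3% in all, median 0.01). A call throughout is an adjusted p below 0.05 in a limma model over all genes. In 5 of the 12 the groups did not overlap and ran bioink, tumour, 2D culture, an order that 3.84% of all tested genes had; in 3 they ran bioink, 2D culture, tumour, which 6.33% had. Without bioink replicate 1 the counts were 9 higher and 0 lower against tumours, and 8 higher and 0 lower against 2D culture. Markers of pericytes and mural cells, one of the cell types of the penta-culture, ran bioink, tumour, 2D culture when summed. The 7 markers summed to 2510 to 2590 in the bioink, 1505 to 1683 in tumours and 965 to 1008 in 2D culture. Most of each sum was Cspg4, with means of 1984, 1319 and 699. Rgs5 and Cspg4 among the markers ran bioink, tumour, 2D culture without overlap. Vtn was highest in tumours, and Vtn and Kcnj8 were at 0 in all 2D libraries. Of the 5 tested, 4 were higher and 1 lower in the bioink than in tumours. In 2D culture against tumours 2 were higher, Pdgfrb and Notch3 (log2 1.32 and 1.08), and 3 lower. Fibroblast markers summed in the same order, to 21997 to 23753 in the bioink, 12852 to 13684 in tumours and 11782 to 12343 in 2D culture. Of those 6 markers, however, 3 were higher and 1 lower in 2D culture than in tumours. The part of pericytes, mural cells or fibroblasts in the levels of the HIF targets was not tested.

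**Figure D1:**
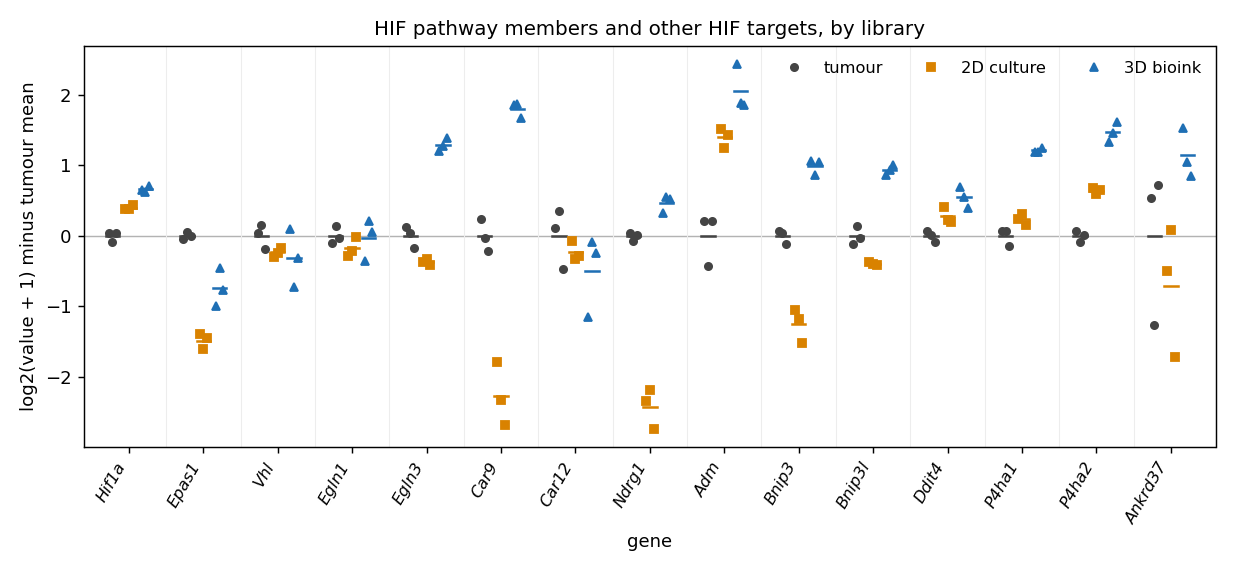
Level of each HIF pathway gene and other HIF target in the 9 libraries, as log2(value + 1) minus the mean of the 3 tumour libraries (vertical axis); points are libraries and short bars group means. Car9, Ndrg1, Bnip3, Bnip3l and Egln3 have the bioink above and 2D culture below the tumours, while Adm, P4ha1 and P4ha2 have both cultures above the tumours.

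Car9, a membrane carbonic anhydrase that exports acid and a standard hypoxia marker (chromosome 4, 43507026 to 43513729), had the largest difference of the 37 genes between bioink and 2D culture. Its values were 212, 175 and 154 in tumours, 51, 35 and 27 in 2D culture, and 651, 658 and 571 in the bioink. The highest 2D library lay below the lowest tumour library, which lay below the lowest bioink library. The bioink was 3.48-fold above tumours (log2 1.80, SE 0.23, adjusted p = 8.63e-05) and 16.7-fold above 2D culture (log2 4.07, adjusted p = 4.36e-07), and 2D culture was 4.80-fold below tumours (log2 -2.26, adjusted p = 2.08e-05). Car12, the related carbonic anhydrase, held between 53 and 153 in the 9 libraries and passed in no comparison (adjusted p between 0.197 and 0.58). Ndrg1, a stress-induced gene of differentiation and lipid trafficking (chromosome 15, 66929318 to 66969641), showed 376, 348 and 369 in tumours, 71, 79 and 54 in 2D culture, and 455, 536 and 526 in the bioink. It was 5.36-fold lower in 2D culture than in tumours (log2 -2.42, SE 0.16, adjusted p = 8.12e-07) and 7.41-fold higher in the bioink than in 2D culture. The rise of Ndrg1 over tumours was smaller, at log2 0.47 (adjusted p = 0.0254). Its adjusted p ranged from 0.00228 to 0.0806 over the alternatives. The call was lost when tumour replicate 2 or 3 or bioink replicate 2 or 3 was left out.

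The BNIP3 pair, mitochondrial receptors for mitophagy, followed the same order. Bnip3 (chromosome 7, 138890836 to 138909506) had 830, 820 and 734 in tumours, 381, 350 and 277 in 2D culture, and 1655, 1440 and 1640 in the bioink. All 3 groups were separate, and Bnip3 was 1.98-fold higher in the bioink than in tumours and 2.38-fold lower in 2D culture than in tumours (log2 0.99 and -1.25, SE 0.12, adjusted p = 5.78e-05 and 1.32e-05). Bnip3l gave 1001, 1187 and 1061 in tumours, 840, 819 and 811 in 2D culture, and 1972, 2072 and 2162 in the bioink. Its differences were log2 0.94 for the bioink and -0.39 for 2D culture against tumours (SE 0.07, adjusted p = 2.76e-06 and 0.00128), and the within-library ratio of Bnip3l to Bnip3 was 1.81-fold higher in 2D culture than in tumours, without overlap.

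The oxygen sensors did not move together. Egln3 (PHD3), the prolyl hydroxylase that HIF itself induces (chromosome 12, 54178981 to 54203874), had 274, 258 and 224 in tumours, 194, 200 and 189 in 2D culture, and 582, 607 and 661 in the bioink. The bioink libraries lay far above the rest, by 2.45-fold over tumours (log2 1.29, SE 0.11, adjusted p = 5.87e-06) and 3.16-fold over 2D culture (adjusted p = 1.35e-06). The lower level in 2D culture than in tumours was small (log2 -0.37, adjusted p = 0.0196, range 0.00936 to 0.327 over the alternatives), and Egln3 passed there no more without tumour replicate 1 or 2 or 2D replicate 1 or 3. Egln1 (PHD2), the main constitutive sensor, spanned 2023 to 2982 with all groups overlapping and was called in no comparison (adjusted p between 0.321 and 0.86). The ratio of Egln3 to Egln1 was 2.50-fold higher in the bioink than in tumours and 2.87-fold higher than in 2D culture.

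In a second set of targets both cultures lay above the tumours. P4ha1 and P4ha2 are the catalytic subunits of collagen prolyl 4-hydroxylase. P4ha1 (chromosome 10, 59323197 to 59373304) stood at 2422, 2422 and 2074 in tumours, 2728, 2844 and 2569 in 2D culture, and 5261, 5270 and 5459 in the bioink. Most of its rise was thus in the bioink, 2.32-fold over tumours (log2 1.21, SE 0.07, adjusted p = 3.33e-07). In 2D culture P4ha1 was higher than in tumours by log2 0.24 (adjusted p = 0.0154, range 0.00721 to 0.0647, not called without 2D replicate 2). P4ha2 had 349, 311 and 334 in tumours, 530, 498 and 519 in 2D culture, and 836, 914 and 1021 in the bioink, in 3 separate steps of which the bioink over tumours measured 2.78-fold (adjusted p = 7.1e-07) and the bioink over 2D culture 1.78-fold (adjusted p = 4.14e-05). Adm, the vasodilator peptide adrenomedullin, was low, at 46, 29 and 46 in tumours, 115, 95 and 108 in 2D culture, and 218, 148 and 146 in the bioink. Its bioink libraries were 4.17-fold above tumours (log2 2.06, SE 0.26, adjusted p = 7.25e-05) and its 2D libraries 2.64-fold above tumours (adjusted p = 0.00121), while bioink against 2D culture missed the threshold (log2 0.66, adjusted p = 0.0512). Ddit4 (REDD1), an inhibitor of mTORC1, spanned 1283 to 1434 in tumours, 1558 to 1816 in 2D culture and 1795 to 2199 in the bioink; it was higher in the bioink than in tumours by log2 0.55 (adjusted p = 0.000413), and its smaller differences of 0.28 and 0.27 in the other comparisons were not called without tumour replicate 2 or 3 or 2D replicate 1 (2D culture against tumours, adjusted p up to 0.0937), or without 2D replicate 2 or 3 or bioink replicate 1 or 2 (bioink against 2D culture, up to 0.0931). Ankrd37, an ankyrin repeat gene named as a direct HIF-1 target, was outside this set, as its 2D libraries overlapped the tumours. Ankrd37 was read at 89, 25 and 102 in tumours, 43, 65 and 18 in 2D culture, and 178, 128 and 111 in the bioink. It was called only in the bioink against 2D culture (log2 1.85, SE 0.58, adjusted p = 0.0205), and not without 2D replicate 3 (1.35, adjusted p = 0.0758) or without bioink replicate 1 (adjusted p = 0.062).

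**Figure D2:**
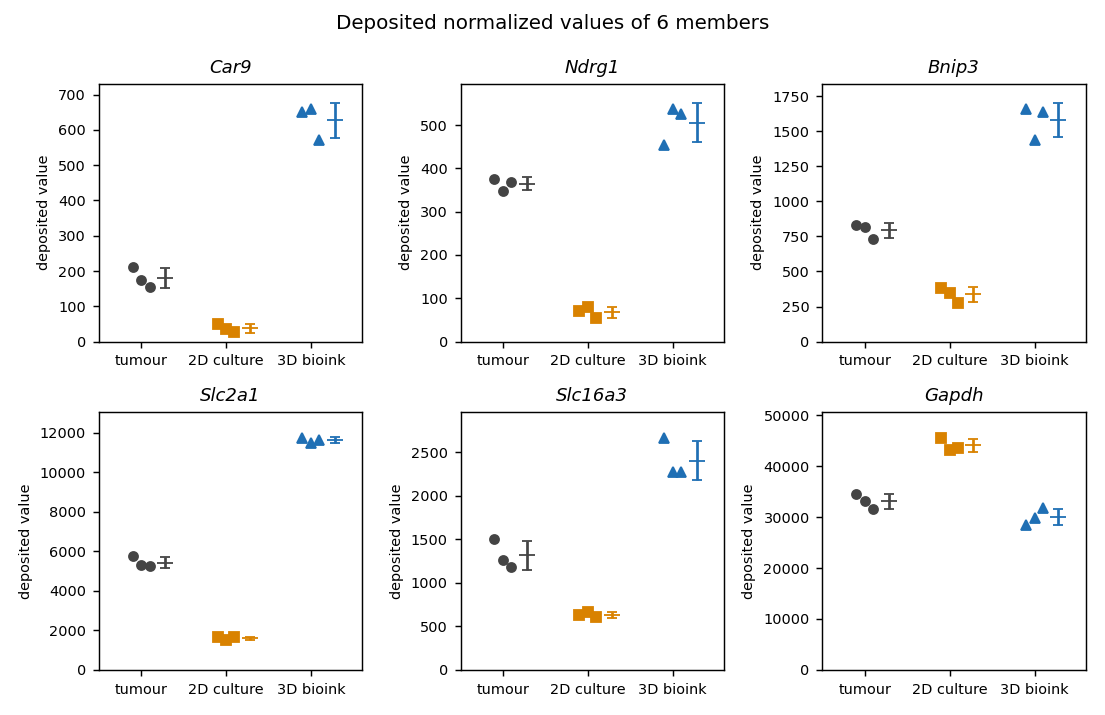
Deposited values (vertical axes, linear from 0) of 6 members in the 9 libraries; points are libraries, and the bar beside them is the mean with 1 SD (n = 3). Car9, Ndrg1, Bnip3, Slc2a1 and Slc16a3 are highest in the bioink and lowest in 2D culture, and Gapdh is highest in 2D culture.

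Glucose uptake and glycolysis did not move as a block. Against tumours, 10 of the 22 genes rose in the bioink and 5 fell (median log2 difference 0.14); in 2D culture 8 rose and 9 fell (median -0.08). In the bioink against 2D culture 11 rose and 3 fell (median 0.20). These shares are read against the same 27.1% and 37.3%, 27.3% and 27.0%, and 27.0% and 32.2% of all genes, higher and lower. The split against tumours depended on the scaling: it was 14 higher and 1 lower with equal upper quartiles, 17 and 1 with quantile normalization, and 11 and 2 with median ratio scaling. The corresponding splits against 2D culture were 16 and 2, 17 and 2, and 15 and 3. The shares of all genes above belong to the fit without rescaling, and the counts over all genes moved too. Over all alternatives, other filters among them, 3216 to 4716 genes were higher and 3855 to 5413 lower in the bioink than in tumours. Against 2D culture 3064 to 4814 were higher and 3193 to 5087 lower. How much of the shift belongs to the 22 genes alone was not tested. Equal upper quartiles moved the median of all genes from -0.11 to 0.12 for the bioink against tumours and from -0.02 to 0.20 against 2D culture. Quantile normalization moved it from 0.01 to 0.18 for 2D culture against tumours. The direction of differences of that size can thus depend on the scaling. Among the called differences of the enzymes, the sign changed with the scaling only in the bioink against tumours. Array weights gave 16 and 5 against 2D culture, but rested mostly on 1 bioink library. The weights of bioink replicates 1, 2 and 3 were 0.236, 0.761 and 4.96. With 1 tumour or bioink library left out, 10 genes were called higher against tumours, while the number called lower was 2 without tumour replicate 1 or 2, 3 without any one of the bioink replicates 1, 2 and 3, and 4 without tumour replicate 3. A fit of the bioink and tumour libraries alone also gave 2 lower. Against 2D culture the split without bioink replicate 1 was 14 and 3. Libraries that did not overlap at all were counted as well. They put 10 of the 22 genes higher and 4 lower in the bioink than in tumours (28.7% and 38.9% of all genes), 8 higher and 9 lower in 2D culture than in tumours (32.2% and 31.7%), and 12 higher and 4 lower in the bioink than in 2D culture (31.5% and 35.6%). With all 3 groups apart, 3 genes (Hk2, Gpi1 and Pfkfb3) ran tumour, bioink, 2D culture, as did 6.06% of all genes. Another 3 (Slc2a1, Slc16a3 and Pfkl) ran bioink, tumour, 2D culture (3.84%), 2 (Slc2a3 and Pdk1) bioink, 2D culture, tumour (6.33%), and 1 (Ldha) 2D culture, bioink, tumour (4.23%). The remaining orders, with the bioink lowest, had 0 of the 37 genes, against 8.29% of all genes with 2D culture highest and 6.47% with tumours highest.

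**Figure D3:**
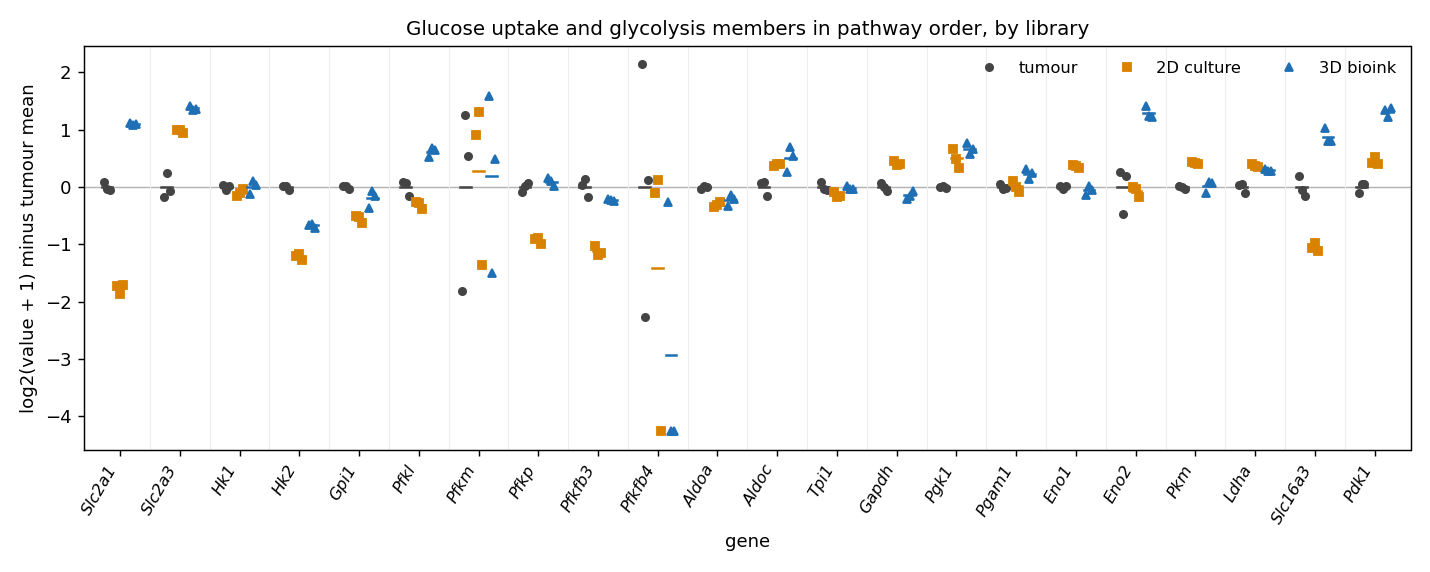
Level of each gene of glucose uptake and glycolysis in the 9 libraries, in pathway order from glucose import to lactate export and pyruvate dehydrogenase kinase, as log2(value + 1) minus the tumour mean; points are libraries and short bars group means. The wide spread of Pfkm and Pfkfb4 lies between libraries of the same group, and Slc2a1, Hk2, Pfkp, Pfkfb3 and Slc16a3 are lowest in 2D culture.

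Glucose import held the largest called difference among the 22. Slc2a1 (GLUT1), the basal glucose transporter of most cells and of brain endothelium (chromosome 4, 119108745 to 119137330), had 5738, 5292 and 5248 in tumours, 1639, 1493 and 1658 in 2D culture, and 11750, 11489 and 11652 in the bioink. The spread within a group was small beside the distance between groups. The bioink exceeded tumours 2.14-fold (log2 1.10, SE 0.06, adjusted p = 1.58e-07) and 2D culture 7.29-fold (log2 2.87, adjusted p = 7.12e-10), and 2D culture was 3.40-fold below tumours (log2 -1.76, adjusted p = 5.79e-09). Slc2a3 (GLUT3), the high-affinity transporter of neurons and many tumours, instead had 255, 340 and 272 in tumours, 573, 571 and 550 in 2D culture, and 765, 731 and 740 in the bioink. It rose 2.59-fold in the bioink and 1.97-fold in 2D culture over tumours (log2 1.37 and 0.97, SE 0.11, adjusted p = 3.12e-06 and 4.01e-05). The 2D libraries therefore held less Slc2a1 but more Slc2a3 than tumours, and the within-library ratio of Slc2a3 to Slc2a1 was 6.68-fold higher in 2D culture than in tumours.

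At the first steps of glycolysis the order was different again. Hk2, the inducible hexokinase that binds mitochondria (chromosome 6, 82725025 to 82774454), had its highest values in tumours, 3321, 3332 and 3168, its lowest in 2D culture, 1421, 1448 and 1352, and 2065, 2101 and 2002 in the bioink. It fell in both cultures (log2 -0.67 in the bioink and -1.22 in 2D culture, SE 0.05, adjusted p = 2.32e-06 and 3.82e-08) and was 1.46-fold higher in the bioink than in 2D culture (adjusted p = 1.14e-05). Hk1, the housekeeping hexokinase, stayed between 2531 and 3051 in all libraries and was not called (adjusted p between 0.193 and 0.936). Gpi1, glucose-6-phosphate isomerase, was lower in 2D culture (3997 to 4348) than in tumours (6031 to 6248; log2 -0.55, adjusted p = 0.000112). Its lower level in the bioink, 4808 to 5883, gave log2 -0.20 (adjusted p = 0.0359), which was 0.04 with equal upper quartiles and 0.14 with quantile normalization and missed the threshold without any 1 of tumour replicates 1, 2 or 3 or bioink replicates 1 or 3.

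Of the phosphofructokinase subunits, Pfkl, the liver type, ran from 2928 to 3461 in tumours, 2484 to 2718 in 2D culture and 4679 to 5208 in the bioink, 1.53-fold above tumours and 1.90-fold above 2D culture (log2 0.62 and 0.93, SE 0.08, adjusted p = 5.69e-05 and 4.19e-06). Pfkp, the platelet type, had 2593, 2785 and 2914 in tumours, 1473, 1482 and 1380 in 2D culture, and 3078, 2985 and 2787 in the bioink. Tumour and bioink libraries of Pfkp overlapped, and 2D culture was 1.91-fold below tumours (log2 -0.93, SE 0.06, adjusted p = 1.05e-06) and 2.04-fold below the bioink. Pfkm, the muscle type, gave 57, 484 and 296 in tumours, 380, 501 and 78 in 2D culture, and 607, 71 and 284 in the bioink, so that libraries of one group differed more than the groups did, and no call was made. Pfkfb3, which makes the phosphofructokinase activator fructose-2,6-bisphosphate, had 1353, 1463 and 1164 in tumours, 649, 578 and 593 in 2D culture, and 1140, 1123 and 1117 in the bioink. It was 2.18-fold lower in 2D culture than in tumours (log2 -1.12, SE 0.09, adjusted p = 3.31e-06) and 1.86-fold higher in the bioink than in 2D culture. The difference of Pfkfb3 between bioink and tumours, log2 -0.23, was at the threshold (adjusted p = 0.0457), was 0.01 with equal upper quartiles, and lost its call with tumour replicate 1 or 2 or any 1 of the bioink libraries left out. Pfkfb4, its HIF-induced relative, was read at 84, 3 and 20 in tumours, 17, 20 and 0 in 2D culture, and 15, 0 and 0 in the bioink, and was not called.

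Several enzymes of the later steps were highest in 2D culture. Gapdh, the oxidoreductase often used as a reference gene, spanned 31612 to 34616 in tumours, 43231 to 45603 in 2D culture and 28537 to 31737 in the bioink. It rose in 2D culture by log2 0.41 (SE 0.06, adjusted p = 0.000146) and was lower in the bioink than in 2D culture by log2 -0.56 (adjusted p = 1.84e-05). Against tumours the bioink value of Gapdh was -0.14 (adjusted p = 0.0469), but 0.10 with equal upper quartiles and 0.18 with quantile normalization, and not called without tumour replicate 1 or 2 or bioink replicate 1 or 2. Eno1, the main enolase, and Pkm, pyruvate kinase, had the same profile. Eno1 spanned 27344 to 28350 in tumours, 35150 to 36732 in 2D culture and 25364 to 28199 in the bioink, with differences of 0.36 in 2D culture and -0.06 in the bioink against tumours (adjusted p = 0.00017 and 0.312). Pkm spanned 28599 to 29811 in tumours, 38488 to 39855 in 2D culture and 27324 to 31209 in the bioink, with 0.42 and 0.02 (adjusted p = 0.000143 and 0.754). In the bioink against 2D culture Eno1 was lower by log2 -0.42 (adjusted p = 5.64e-05) and Pkm by -0.40 (adjusted p = 0.000197), and the call for Pkm was lost with equal upper quartiles or quantile normalization (adjusted p up to 0.104).

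Pgk1 and Ldha rose in both cultures. Pgk1, which makes the first ATP of the pathway (chromosome X, 106187100 to 106203699), had 15064, 15330 and 14992 in tumours, 23928, 21311 and 19139 in 2D culture, and 25707, 22475 and 23990 in the bioink. It was 1.59-fold higher in the bioink and 1.41-fold higher in 2D culture than in tumours (log2 0.67 and 0.50, SE 0.08, adjusted p = 4.89e-05 and 0.000449), and the cultures overlapped. Ldha, which turns pyruvate into lactate (chromosome 7, 46842274 to 46855627), had 9159, 9305 and 8325 in tumours, 11806, 11499 and 11398 in 2D culture, and 11156, 10868 and 10796 in the bioink. All 6 culture libraries lay above the tumours, by log2 0.37 in 2D culture and 0.29 in the bioink (SE 0.05, adjusted p = 0.000141 and 0.00058), with no call between the cultures (adjusted p = 0.197). Aldoa fell in 2D culture (log2 -0.31, adjusted p = 0.000872); in the bioink it gave -0.23 (adjusted p = 0.00405) but 0.01 with equal upper quartiles and 0.28 with quantile normalization. Aldoc, the brain aldolase, rose by 0.50 in the bioink and by 0.39 in 2D culture (adjusted p = 0.00233 and 0.0111). Pgam1 rose in the bioink by 0.23 over tumours (adjusted p = 0.00936) and by 0.22 over 2D culture (adjusted p = 0.0128, and 0.0541 without 2D replicate 3). Tpi1 differed by no more than log2 -0.14 (2D culture against tumours, adjusted p = 0.0451), a call lost under 8 of 16 alternatives, 4 of them single libraries left out (tumour replicates 1 and 2, 2D replicates 2 and 3). Eno2, the neuronal enolase, had 173, 104 and 165 in tumours, 143, 141 and 128 in 2D culture, and 383, 339 and 335 in the bioink. Its bioink libraries lay above all others. Eno2 was 2.44-fold higher in the bioink than in tumours and 2.55-fold higher than in 2D culture (log2 1.28 and 1.35, SE 0.20, adjusted p = 0.000286 and 0.000242). Gapdh, Eno1, Aldoa, Tpi1, Pgam1, Pgk1, Pkm and Ldha have processed copies elsewhere in the genome that the counting could have drawn reads from or to, which leaves their values uncertain.

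The lactate exporter gene and the pyruvate dehydrogenase kinase gene among the 22 were both highest in the bioink. Slc16a3 (MCT4), the HIF-induced exporter (chromosome 11, 120948484 to 120959000), had 1502, 1262 and 1180 in tumours, 627, 665 and 603 in 2D culture, and 2667, 2275 and 2272 in the bioink. The bioink was 1.83-fold above tumours (log2 0.87, SE 0.10, adjusted p = 3.86e-05) and 3.79-fold above 2D culture (adjusted p = 2.54e-07), and 2D culture was 2.07-fold below tumours (adjusted p = 1.27e-05). Pdk1, the kinase that switches off pyruvate dehydrogenase, had 573, 638 and 635 in tumours, 822, 887 and 817 in 2D culture, and 1565, 1435 and 1606 in the bioink. Its groups did not overlap either, but ran bioink, 2D culture, tumour, at 2.49-fold and 1.37-fold over tumours (log2 1.32 and 0.45, SE 0.08, adjusted p = 3.4e-07 and 0.000604). Their relatives varied. Slc16a1, another lactate transporter, was highest in 2D culture, at 1845 to 1925 against 1382 to 1494 in the bioink. The kinase gene Pdk3 was lower in the bioink, at 910 to 1300, than in tumours, at 1403 to 1628 (log2 -0.44, adjusted p = 0.0127), or in 2D culture, at 1613 to 1723 (-0.55, adjusted p = 0.004); Pdk3 was chosen after its values were seen.

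**Figure D4:**
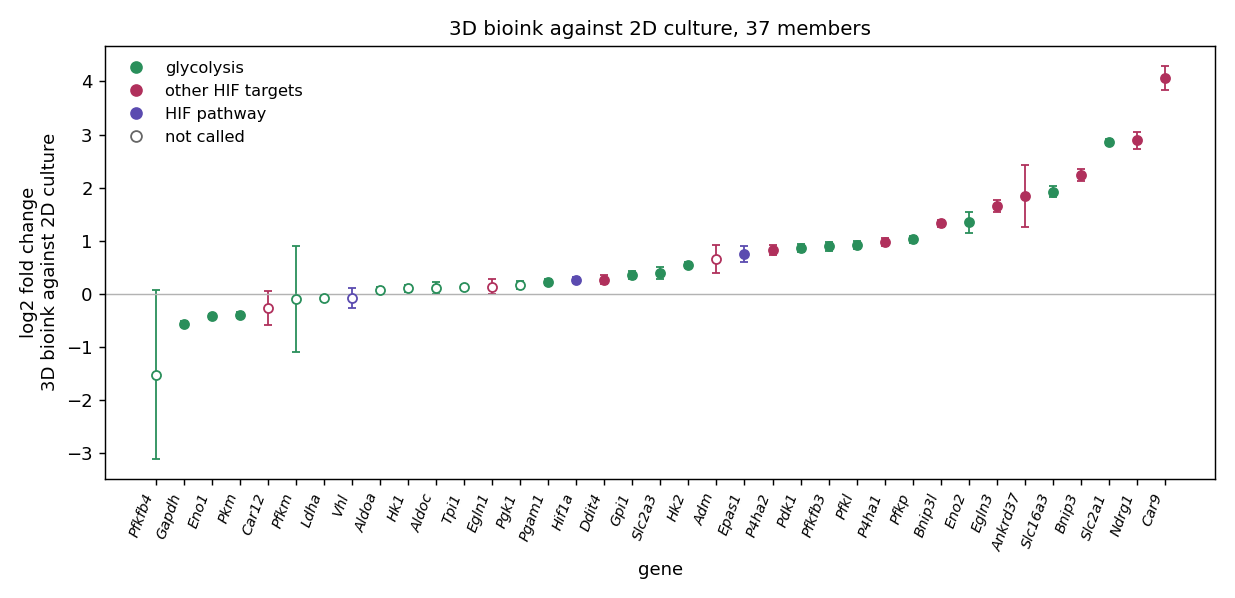
Log2 fold change of the bioink against 2D culture (vertical axis) for the 37 genes in order of size, with bars of 1 SE from limma; filled points were called at an adjusted p below 0.05. Car9 (4.07), Ndrg1 (2.89), Slc2a1 (2.87) and Bnip3 (2.24) are highest, and Gapdh (-0.56), Eno1 (-0.42) and Pkm (-0.40) are the called genes below 0.

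A ratio between related genes in the same library does not change when the library is rescaled by one factor; quantile normalization, which shifts genes unequally, was not applied to the ratios. Of 14 such pairs, 8 did not overlap between bioink and tumours, 10 between 2D culture and tumours and 9 between the cultures. Among single genes, 28.7% lay higher and 38.9% lower without overlap in the bioink than in tumours, 32.2% and 31.7% in 2D culture than in tumours, and 31.5% and 35.6% in the bioink than in 2D culture, so the counts of pairs are near what single genes show. With 3 libraries a group an exact two-sided permutation test cannot go below p = 0.1, which each of these pairs reached (0.156 after Benjamini-Hochberg adjustment over 42 tests). The largest was Car12 to Car9, 20.1-fold lower in the bioink than in 2D culture, where Car9 stood at 27 to 51. In hexokinases, Hk2 to Hk1 was lower in both cultures than in tumours, by 1.60-fold in the bioink and 2.17-fold in 2D culture. Eno2 to Eno1 was 2.54-fold higher in the bioink than in tumours and 3.42-fold higher than in 2D culture. The ratio of the lactate transporter Slc16a1 (MCT1) to Slc16a3 was 5.40-fold higher in 2D culture than in tumours and overlapped between bioink and tumours (exact permutation p = 0.7). Ldhb, the subunit of the lactate dehydrogenase of oxidative tissues, was lower relative to Ldha in both cultures, 2.09-fold in the bioink and 1.79-fold in 2D culture.

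**Figure D5:**
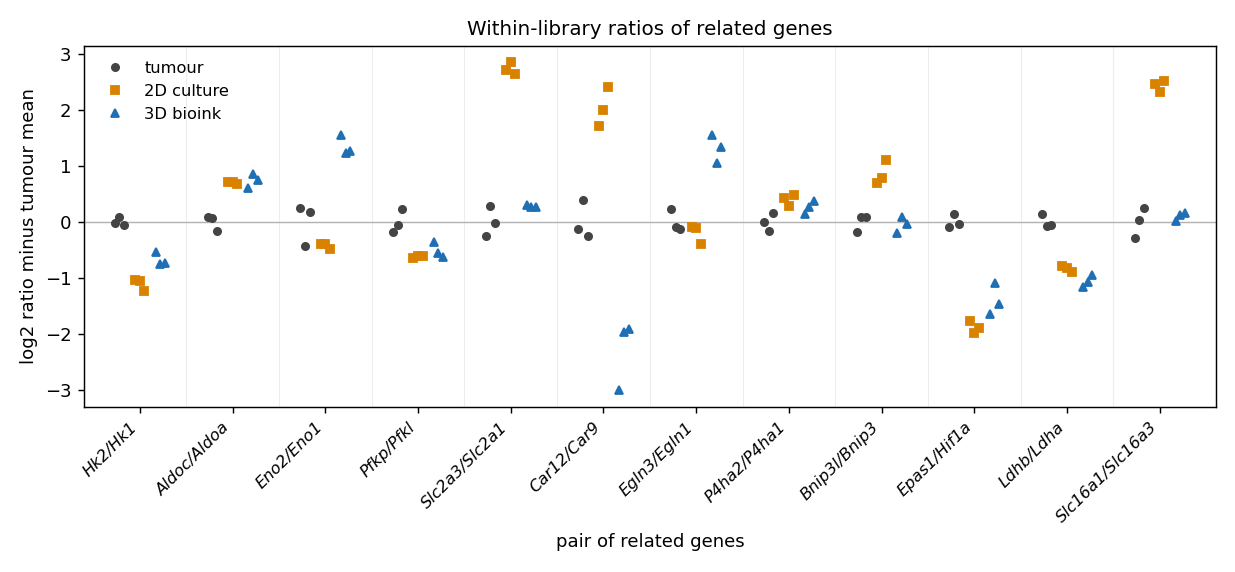
Log2 ratio of related genes within each library, minus the mean of the tumour libraries (vertical axis), for 12 of the 14 pairs; the pairs with Pfkm and Pfkfb4 are left out for their spread. Slc2a3 to Slc2a1, Car12 to Car9 and Slc16a1 to Slc16a3 are high in 2D culture, and Epas1 to Hif1a is low in both cultures.

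Summed over 16 glycolytic enzymes, the pathway made up 0.977 ± 0.0187% of all deposited values in tumours, 1.21 ± 0.0302% in 2D culture and 1.22 ± 0.0274% in the bioink (SD, n = 3). Both cultures lay above the tumours without overlap (exact two-sided permutation p = 0.1, the smallest possible) and overlapped each other (exact permutation p = 0.7). The total of all values was lower in the bioink (13548461 to 13683978) than in tumours (16320090 to 16388074), which by itself raises the bioink share. This sum is carried by a few enzymes. Leaving the 100 highest genes of the table out of both the sum and the total, 5 enzymes among them, gave 0.290 ± 0.00832% in tumours, 0.276 ± 0.00753% in 2D culture and 0.380 ± 0.00264% in the bioink. The 2D libraries then overlapped the tumours (exact permutation p = 0.2). Leaving only Gapdh and Aldoa out of the sum gave 0.675% in tumours, 0.841% in 2D culture and 0.897% in the bioink. In both of these settings the bioink lay above 2D culture without overlap (exact permutation p = 0.1).

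Around these genes, the rest of glucose metabolism was followed in 4 lists. Of all genes tested, 27.1% rose and 37.3% fell in the bioink against tumours, 27.3% and 27.0% in 2D culture against tumours, and 27.0% and 32.2% in the bioink against 2D culture; a list whose share is near these shows nothing of its own. Among relatives of the glycolytic enzymes, 9 of 14 passed the filter on low values, of which 0 rose and 3 fell in the bioink and 2 rose and 3 fell in 2D culture against tumours; 2 rose and 3 fell between the cultures. Hk3, a hexokinase of myeloid cells, had 2299, 2133 and 2090 in tumours, 0, 2 and 0 in 2D culture, and 11, 1 and 9 in the bioink. It was called lower in both cultures, and its call between the cultures was lost without 2D replicate 1 or 3 or bioink replicate 1 or 3 (adjusted p up to 0.0852). Bpgm, which makes 2,3-bisphosphoglycerate, fell by 0.66 in the bioink. Eno3, the muscle enolase, rose by 0.97 in 2D culture, and Pfkfb1, the liver isoform of the bifunctional enzyme, by 0.92 (adjusted p = 0.0157, and 0.0717 without 2D replicate 3); in the bioink against 2D culture both were lower (log2 -1.30 and -1.31). Hkdc1, a hexokinase-like gene at 4 to 34, was lower in 2D culture than in tumours (log2 -1.83) and higher in the bioink than in 2D culture (2.02). Both calls for Hkdc1 were lost with quantile normalization (limma adjusted p = 0.0971 and 0.097).

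Of 14 genes of pyruvate and lactate use, 5 rose and 5 fell in the bioink and 4 rose and 2 fell in 2D culture against tumours, while in the bioink against 2D culture 3 rose and 8 fell. Of all genes, 27.1% rose and 37.3% fell in the bioink and 27.3% and 27.0% in 2D culture against tumours, and 27.0% rose and 32.2% fell between the cultures; the counts in the bioink against tumours are near these. Pdk4, a pyruvate dehydrogenase kinase known from fasting, rose from 11, 25 and 14 in tumours to 168, 194 and 242 in the bioink (log2 3.58, SE 0.38, adjusted p = 2.3e-05). In 2D culture it stood at 43, 34 and 21. Slc16a1 rose by 0.97 in the bioink and by 1.38 in 2D culture, and Ldhb fell (log2 -0.77 and -0.46). Mpc1, a subunit of the mitochondrial pyruvate carrier, fell by 0.53 in the bioink. The call for Mpc1 was lost with equal upper quartiles or quantile normalization (limma adjusted p up to 0.104). Pdha1, the catalytic subunit of pyruvate dehydrogenase, rose by 0.90 in 2D culture and, with Dlat of the same complex, was lower in the bioink than in 2D culture (log2 -0.66 and -0.68). Pdk2 fell by 1.23 in 2D culture against tumours and was higher in the bioink than in 2D culture (1.06).

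In the pentose phosphate pathway, the branch that makes NADPH and ribose, 5 of 7 genes fell and 0 rose in the bioink against both other groups, while in 2D culture 3 rose and 1 fell against tumours. Of all genes, 37.3% fell in the bioink against tumours and 32.2% against 2D culture, and 27.3% rose in 2D culture. Taldo1 had 2408, 2469 and 2229 in tumours, 3589, 3571 and 3922 in 2D culture, and 1044, 1195 and 1081 in the bioink. That put the bioink 2.14-fold below tumours and 3.34-fold below 2D culture (log2 -1.10 and -1.74, SE 0.07, adjusted p = 6.82e-07 and 5.72e-08). G6pdx, the entry enzyme, rose by 0.69 in 2D culture over tumours and was lower in the bioink than in 2D culture (log2 -1.13), and Pgd fell in both cultures (log2 -0.82 in the bioink and -0.18 in 2D culture). The latter was not called without tumour replicate 1 or 2D replicate 2 or 3 (adjusted p up to 0.0939). Of gluconeogenesis and glycogen genes, 9 of 13 passed the filter; 2 rose and 4 fell in the bioink, 0 rose and 1 fell in 2D culture, and 5 rose and 3 fell between the cultures. The glycogen branching enzyme Gbe1 had 288, 303 and 221 in tumours, 266, 334 and 268 in 2D culture, and 933, 874 and 921 in the bioink, 3.38-fold over tumours (adjusted p = 3.09e-06). Ugp2, which makes the glucose donor for glycogen, rose by 0.77 there. The liver phosphorylase Pygl fell in both cultures (log2 -2.15 in the bioink and -4.52 in 2D culture) and was higher in the bioink than in 2D culture (2.37), as was the muscle form Pygm (2.02, not called without 2D replicate 1, adjusted p = 0.0527); the brain form Pygb was lower there (log2 -0.57). Pck2, the mitochondrial PEP carboxykinase, had 206, 286 and 340 in tumours, 309, 438 and 357 in 2D culture, and 0, 57 and 72 in the bioink. Its differences of -4.07 and -4.50 rested on the library at 0 (bioink replicate 1) and were -2.07 and -2.49 without it; the call against tumours was lost without tumour replicate 2 or 3 (adjusted p up to 0.059).

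Of 12 further genes of the HIF machinery, 4 rose and 3 fell in the bioink and 2 rose and 1 fell in 2D culture against tumours, and 4 rose and 4 fell between the cultures. These counts are near or below the shares of all genes, of which 64.4% were called in the bioink and 54.3% in 2D culture against tumours, and 59.2% between the cultures. Hif3a, an alpha subunit that can restrain the others and is itself induced in hypoxia, had 43, 44 and 64 in tumours, 126, 132 and 154 in 2D culture, and 403, 325 and 350 in the bioink. All groups were apart, with the bioink 7.11-fold over tumours (log2 2.83, SE 0.20, adjusted p = 1.44e-06). The coactivator gene Crebbp rose by 0.59 in the bioink, not called without tumour replicate 2 or 3 or bioink replicate 3 (adjusted p up to 0.0623). Egln2 (PHD1) and Elob, a partner of VHL, fell in the bioink against tumours (log2 -0.71 and -0.76), and lay lower than in 2D culture as well (log2 -0.54 and -1.01). Cul2, the scaffold of the VHL ligase, rose by 0.44 in 2D culture (adjusted p = 0.0127, and 0.0558 without 2D replicate 2). Cited2, which competes with HIF for its coactivators, fell by 1.36 in 2D culture and was higher in the bioink than in 2D culture (1.28).

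Further HIF targets outside the 37 numbered 30, of which 29 symbols were in the table and 28 were tested. In the bioink 11 rose and 9 fell against tumours, in 2D culture 4 rose and 14 fell, and between the cultures 16 rose and 4 fell in the bioink. Of all genes, 27.1% rose and 37.3% fell in the first of these comparisons, 27.3% and 27.0% in the second, and 27.0% and 32.2% in the third. The medians of the list were 0.09, -0.54 and 1.05 on the log2 scale, against -0.11, 0.01 and -0.02 over all genes. Vegfa, the angiogenic factor, had 6140, 6292 and 6215 in tumours, 1179, 1129 and 1173 in 2D culture, and 3520, 3970 and 3663 in the bioink. Unlike Car9 or Slc2a1, it was highest in tumours, with the bioink between (log2 1.68 over 2D culture, SE 0.05, adjusted p = 1.73e-08). Bhlhe40, a hypoxia-induced repressor, had 3260, 3638 and 3408 in tumours, 457, 479 and 492 in 2D culture, and 2870, 3238 and 3268 in the bioink, 6.55-fold above 2D culture. The kinase gene Pim1 fell in the bioink and in 2D culture (log2 -3.36 and -5.26), as did the receptor gene Gpr35 (-3.08 and -4.90). Stc2, a secreted glycoprotein, was listed at 0 in all tumour libraries, at 9, 9 and 5 in 2D culture and at 83, 64 and 76 in the bioink. The collagen cross-linking enzyme Lox had 0, 9 and 17 in tumours, 2161, 2161 and 2189 in 2D culture, and 2638, 2147 and 2195 in the bioink. Sap30, of a histone deacetylase complex, and Angptl4, an inhibitor of lipoprotein lipase, were lower in the bioink than in 2D culture (log2 -0.84 and -0.42), the latter not called with equal upper quartiles (adjusted p = 0.198, range 0.00138 to 0.198).

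The samples are mixtures, and in them fewer cells of a type and less RNA per cell cannot be told apart. Markers of other cells differed between the groups to unlike degrees. Of all genes, 27.1% rose and 37.3% fell in the bioink against tumours, and 27.3% and 27.0% in 2D culture against tumours. Between the cultures 27.0% rose and 32.2% fell in the bioink. The counts of endothelial and astrocyte markers below are not far from these shares and show nothing of their own. The summed level of 10 macrophage and monocyte markers was 26948 to 27533 in tumours, 75 to 105 in 2D culture and 241 to 351 in the bioink, with Adgre1 and Ly6c2 at 0 in all 2D libraries and 8 of the 9 tested lower in the bioink. Of 9 microglial markers, 8 were lower in each culture than in tumours, with sums of 12604 to 13331, 894 to 1002 and 1502 to 1568, and Fcrls was at 0 in every bioink library. Fibroblast markers summed to 12852 to 13684, 11782 to 12343 and 21997 to 23753, and all 6 were higher in the bioink than in 2D culture. In 2D culture against tumours 3 of the 6 were higher and 1 lower, with log2 differences from -2.09 to 5.43. Endothelial markers summed to 4684 to 4954, 4175 to 4577 and 3888 to 6090, and their members diverged. Of the 7 tested, 1 was higher than in tumours in each culture (Cdh5, log2 1.97 in the bioink and 1.94 in 2D culture), while 2 were lower in the bioink and 3 in 2D culture, Cldn5 among them in both (-2.75 and -4.73). Astrocyte markers summed to 4113 to 4291 in tumours, 4336 to 4608 in 2D culture and 5040 to 5282 in the bioink, and they diverged too. Of the 8, 3 were higher and 2 lower in the bioink than in tumours, and 3 were higher and 3 lower in 2D culture. Gfap was lower (log2 -0.66 in the bioink and -1.83 in 2D culture), and Sox9 was higher (3.98 and 2.11). The part of these cells in the differences of the 37 genes was not tested. Read depth is unknown from normalized values, which summed to 16320090 to 16388074 in tumours, 15572800 to 15711632 in 2D culture and 13548461 to 13683978 in the bioink.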

How the data were processed

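Bulk RNA was sequenced from 3 libraries of each of 3 groups, with a strand-specific kit and 25 to 75 ng of total RNA, per the labels' protocols. The deposited table holds a score per symbol, which is a normalized count rounded to whole numbers by the authors. The build was mm10 and the tools were DESeq2 1.24.0, DESeq, RSEM and kallisto, per the submitters' processing notes; their roles, and whether counting used strand, are not given in the sources used here. Rounding and unknown depth limit low values, so no counting interval is given.

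Values were tested as log2(value + 1) with limma 3.58.1 in R 4.3.3 (eBayes with trend) over the 13773 genes with a mean of at least 10, all 9 libraries sharing a spread, with Benjamini-Hochberg adjustment over all of them and a threshold of 0.05; fold changes are on that scale. The model was also run on simulated data in which few genes were changed and all groups had the same scale. That run does not test the scaling of these data. Ratios and shares used exact two-sided permutation over 20 assignments. Motifs were searched in RefSeq promoters of GRCm38.p6, which also gave gene coordinates. Members and lists were chosen with earlier results of these data known. Values by library are given for members called with a log2 difference of at least 1 in any comparison, and for Slc2a1, Hk2, Pgk1, Ldha, Car9 and Hif1a; from each other list the 2 called genes with the largest difference in each direction and comparison are named, and Vegfa. Alternatives were other pseudocounts, filters, scalings, groups fitted, array weights, a replicate block and each library left out.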

Additional observations from a re-analysis of the deposited data

How the results depend on the processing

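Of 79 called differences of the 37 genes, 66 kept their direction and call under all of their alternatives; over 1264 recomputed values, 1200 did, 57 lost the call and 7 changed sign. The 7 were all in the bioink against tumours: with equal upper quartiles Gpi1 was 0.0423, Pfkfb3 0.00924, Aldoa 0.00747 and Gapdh 0.0957, and with quantile normalization Gpi1 was 0.141, Aldoa 0.283 and Gapdh 0.181. Total counts of called members stayed within 1.5 times under every alternative run, but their split did not: of glycolytic genes in the bioink against tumours, 10 to 17 were called higher and 1 to 5 lower, and against 2D culture 10 to 17 and 2 to 5. HIF targets gave 8 to 9 higher and 0 lower against tumours, and 7 to 10 higher and 0 lower against 2D culture. Over all genes the counts moved as well. In the bioink 3216 to 4716 were higher and 3855 to 5413 lower than in tumours. Against 2D culture 3064 to 4814 were higher and 3193 to 5087 lower. Among ratios whose groups overlapped, leaving out 1 library gave -0.024 to 0.102 for Aldoc to Aldoa between the cultures, -1.37 to 0.450 for Pfkm to Pfkl in the bioink and -0.352 to 1.38 in 2D culture against tumours, -1.50 to 1.12 for Pfkfb4 to Pfkfb3 in 2D culture (0.385 with a pseudocount of 10), and, in the bioink against tumours, -0.140 to 0.0169 for Bnip3l to Bnip3 and -0.0444 to 0.228 for Slc16a1 to Slc16a3. The glycolytic share of 2D culture against tumours was 0.230 percentage points, -0.0149 without the 100 highest genes. Between the cultures the difference in share was -0.00285 to 0.0274 with 1 library left out. It was 0.104 without the 100 highest genes and 0.0562 without Gapdh and Aldoa, the bioink higher. The cause was not tested. Replicate numbers are shared between groups, but same-numbered libraries did not deviate together over all genes (correlations from -0.0326 to 0.0797). Such correlations cannot exclude a shared origin that touches only part of the genes, and the labels give none. With the replicate block, 13 glycolytic members were called in place of 15 in the bioink against tumours. In 2D culture 17 were called as before, and 15 in place of 14 between the cultures. Unknown depth and the low values of bioink replicate 1 limit Pfkfb4, Adm, Ankrd37 and Car12.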
